A study of Homo sapiens with 2 samples.

Results

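The genes described here are the protein-coding genes of chromosome 19 whose symbol is ZNF and a number, with letters after it allowed. The rule reads symbol and position in the RefSeq gene table of GRCh38.p14 and no measured value, although it was set with earlier results of these data known. There are 246 of them among 1451 protein-coding genes of the chromosome and 20037 in the table. A RUNX1 ChIPseq peak list from MCF10A cells, a non-tumorigenic line of human mammary epithelium, was searched for summits in or beside each gene. The list came from 1 library of RUNX1 immunoprecipitate and 1 library of input DNA, and both were made from cells whose own RUNX1 had been deleted and that carried a lentiviral RUNX1 gene induced by doxycycline (24 h at 1 µg/ml). The RUNX1 measured was thus the added one. With no replicate and no uninduced cells no test between samples was possible, and every interval below covers counting error only. The libraries held 80338845 (ChIP) and 87410774 (input) tags after removal of duplicates, and the list held 13591 peaks, 322 of them on chromosome 19.

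The DNA-binding protein RUNX1 pairs with CBFB and recognises a short core sequence. ZNF genes encode C2H2 zinc finger proteins, the largest family of human transcription factors, and on chromosome 19 they arose by repeated tandem duplication and stand in long runs of related copies. Many carry a KRAB domain, through which the corepressor TRIM28 and the methyltransferase SETDB1 are brought to transposable elements, where histone H3 is methylated at lysine 9. The ZNF genes are known themselves to carry that mark over their zinc finger exons in many cell types.

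Few of the ZNF genes had a RUNX1 peak. The summit of at least 1 peak was inside or at most 1 kb outside 11 of 246 members, or 4.47% (95% Wilson interval 2.51 to 7.83%), and 235 members had none. By the same rule a peak was found at 13.2% of the 1205 other protein-coding genes of chromosome 19 (11.4 to 15.2%) and at 21.0% of all protein-coding genes. With 5 kb on either side the count was 13 members, or 5.28% (3.11 to 8.83%), against 18.0% of the other genes of the chromosome and 24.8% of all protein-coding genes. The intervals of the members and of the other genes did not overlap at either distance. They overlapped when peaks under a fold enrichment of 5 were dropped, at 3.66% of members (1.94 to 6.81%) and 7.22% of the other genes (5.89 to 8.82%). All these intervals treat genes as independent, although members stand in runs of neighbours, so they may be too narrow. How well 54 bp tags align to these related copies was not measured, so a member without a peak is one where none was called, and not one shown to be free of RUNX1.

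The ZNF genes were longer than the other genes of the chromosome, and the gap was wider once length was taken into account. Their median length was 23.2 kb (quartiles 15.4 and 33.3 kb), with a range of 2.47 to 488 kb, and that of the other genes of the chromosome was 12.8 kb. When the other genes were weighted to the members' numbers in 6 length classes, 15.4% of them had a peak within 1 kb, which would be 37.9 genes in a family of 246. The members minus the weighted others gave -10.9 percentage points, and the weighted share was 3.45 times theirs. Within 5 kb the weighted share was 19.7%, or 3.73 times that of the members.

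The share of members was the lower one in each of the 6 length classes. Among genes of 10 to 20 kb, 3 of 71 members had a peak (4.23%, Wilson interval 1.45 to 11.7%) and 37 of 335 other genes (11.0%). From 20 to 40 kb, the class with most members, it was 5 of 106 (4.72%, 2.03 to 10.6%) and 33 of 238 (13.9%). From 40 to 80 kb it was 2 of 33 (6.06%, 1.68 to 19.6%) against 33 of 117 (28.2%, 20.8 to 37.0%), the only class in which the intervals of both sets stood apart. Above 80 kb a peak was found at 1 of 8 members and 21 of 44 other genes. None of the 21 members of 5 to 10 kb had one, and neither did any of the 7 shorter members. With 3 genes as the limit that a count of 0 allows, their shares could reach 14.3% and 42.9%, and the upper ends of their Wilson intervals were 15.5% and 35.4%.

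**Figure D1:**
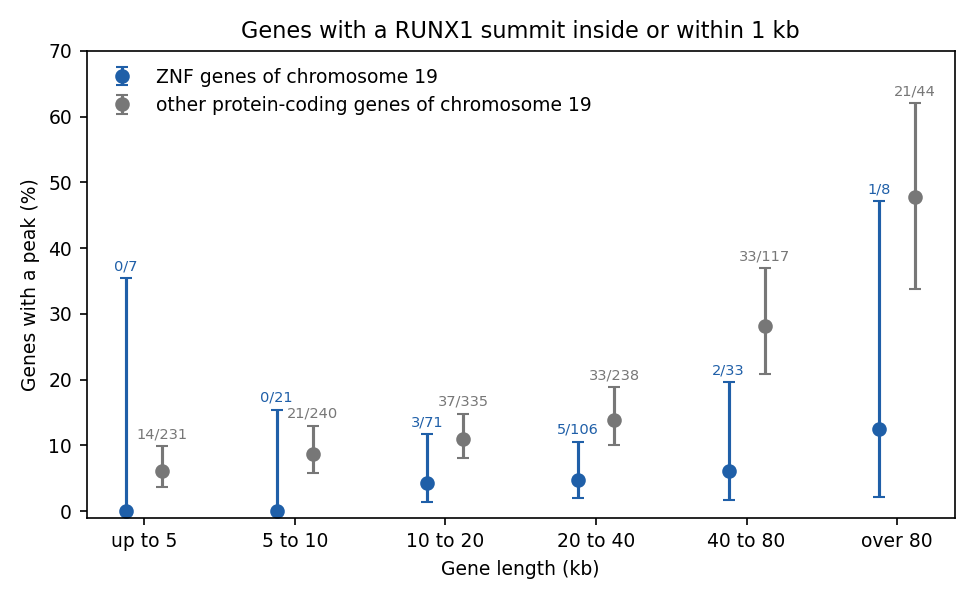
Percent of genes with a RUNX1 summit inside or within 1 kb (vertical axis) by gene length in kb (horizontal axis), for the ZNF genes of chromosome 19 and the other protein-coding genes of that chromosome. Points are shares, bars are 95% Wilson intervals and labels give genes with a peak over genes in the class. The ZNF share is the lower of the pair in all 6 classes, and 2 of 33 stands against 33 of 117 from 40 to 80 kb.

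Counted by sequence rather than by gene, the members and their 1 kb margins covered 7.49 Mb and held 12 summits, or 1.60 peaks per Mb (exact 95% Poisson interval 0.828 to 2.80). The other genes of the chromosome covered 26.6 Mb and held 193, or 7.26 per Mb (6.28 to 8.36), a density 4.53 times that of the members. The summit shared by ZNF302 and SCGB2B2 counts on both sides here, and 192 summits lay at other genes alone. With gene bodies alone the densities were 1.42 and 6.69 peaks per Mb, 4.71 times apart. Of the 204 peaks at any protein-coding gene of chromosome 19, the members held 5.88%, while they made up 17.0% of the genes.

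The 11 members with a peak are named here with the position of each summit on chromosome 19 (GRCh38). 9 of them had a summit inside the gene, and ZNF181 and ZNF546 had one within 1 kb outside. In 10 members there was 1 peak, and ZNF541 had 2. The other genes of the chromosome reached 5 peaks, with 2 or more at 38 of 1205, or 3.15%.

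A pair of neighbours, ZNF302 and ZNF181, had a peak at the same place relative to the listed start site. Both encode KRAB zinc finger proteins, read in the same direction, with start sites 56.6 kb apart. The ZNF302 summit at 34677614 lay 64 bases before its RefSeq start site, which stands inside the gene interval, so the summit was in the gene and 1.64 kb from its nearer end. The ZNF181 summit at 34734180 lay 63 bases before its own, just outside the gene. The pileup, the count of extended ChIP tags that cover a summit, was 18 at ZNF302 (exact 95% Poisson interval 10.7 to 28.4) and 17 at ZNF181 (9.90 to 27.2). Fold enrichment, the pileup over the local background with 1 added to each, was 5.93 at ZNF302 and 5.62 at ZNF181. The heights of this pair differed by less than their counting error. The summit of ZNF302 also lay within 1 kb of SCGB2B2, a secretoglobin gene, and of the pseudogenes SCGB1B2P and ZNF807P, so it cannot be given to ZNF302 alone.

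These were the only members with a summit inside a promoter window, here 250 bases before to 50 after a RefSeq start site. RefSeq windows of GRCh38.p14 were matched for 216 of the 246 members, so 2 of 216 had one (0.926%, Wilson interval 0.254 to 3.31%), against 1.65% of 969 other genes of chromosome 19 and 1.93% of 15843 protein-coding genes. Both windows are shown because they hold these summits. They are printed 5′ to 3′ on the plus strand, chr19:34677428-34677727 for ZNF302 and chr19:34733993-34734292 for ZNF181. Capitals mark the RUNX core letters TGTGGT and TGCGGT on either strand.
ZNF302: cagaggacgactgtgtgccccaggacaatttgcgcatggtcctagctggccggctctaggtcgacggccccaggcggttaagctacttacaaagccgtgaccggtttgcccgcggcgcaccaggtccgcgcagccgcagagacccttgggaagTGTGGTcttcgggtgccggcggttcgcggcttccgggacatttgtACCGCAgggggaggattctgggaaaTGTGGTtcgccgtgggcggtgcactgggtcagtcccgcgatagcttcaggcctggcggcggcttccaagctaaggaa
ZNF181: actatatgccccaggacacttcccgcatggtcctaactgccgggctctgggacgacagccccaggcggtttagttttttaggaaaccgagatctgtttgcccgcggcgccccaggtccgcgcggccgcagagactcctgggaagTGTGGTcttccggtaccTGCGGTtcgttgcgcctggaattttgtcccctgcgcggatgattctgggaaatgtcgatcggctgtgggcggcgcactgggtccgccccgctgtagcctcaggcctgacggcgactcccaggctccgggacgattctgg

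Counted from 1 at the first printed base, the summit was at base 187 of the ZNF302 window and at base 188 of the ZNF181 window. ZNF302 held TGTGGT at bases 154 and 224 and TGCGGT on the other strand at base 199, the nearest of them 12 bases from the summit. ZNF181 held TGTGGT at base 145 and TGCGGT at base 162, which ended 21 bases before the summit. In a global alignment 235 of 300 bases were identical, or 78.3%, and no other window of a member was closer to that of ZNF302. Their longest shared run was 17 bases, tgggaagtgtggtcttc, which contains TGTGGT and begins at base 147 of ZNF302 and base 138 of ZNF181. Among 22199 promoter windows of protein-coding genes, those of ZNF302 and ZNF181 were the 2 that held this run on either strand. The run is shorter than the 54 bp tags, so no tag of that length has an exact copy in both windows. Alignment of tags with mismatches, and copies of tags elsewhere in the genome, were not examined.

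ZNF302 and ZNF181 belong to a run of 5 ZNF genes. The other members of it had no peak within 5 kb, and stood 23.9 kb (ZNF599), 57.0 kb (ZNF30) and 89.5 kb (ZNF792) from the nearest summit.

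The core letters were found in promoters of members and of other genes alike, and the intervals of their shares overlapped. One or both of TGTGGT and TGCGGT were found on either strand in 20.5% of 268 windows of members (Wilson interval 16.1 to 25.8%), in 17.7% of 1280 windows of other genes of the chromosome and in 18.98% of 22199 windows of protein-coding genes. TGTGGT, with or without TGCGGT, was in 15.3% of the members' windows (11.5 to 20.1%), in 10.8% of those of other genes of the chromosome (9.20 to 12.6%) and in 11.3% of all of them (10.9 to 11.7%). TGCGGT, with or without TGTGGT, was in 7.84%, 7.50% and 8.54%. A match to so few letters is a description of the sequence and not a binding site.

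Near start sites lay 4 further peaks. ZNF627 had its summit at 11597911, 428 bases after the start site, with 22 tags (13.8 to 33.3) and a fold enrichment of 7.18. ZNF564 had one at 12551066, 416 bases after the start site, with 14 tags (7.65 to 23.5) and a fold enrichment of 4.68, and the lncRNA gene LINC02926 lay within 1 kb. The ZNF799 summit at 12400152 was 828 bases after the nearer of 2 listed start sites and had 16 tags (9.15 to 26.0). These 3 genes belong to the same run on the short arm and encode KRAB zinc finger proteins. ZNF546, another KRAB gene, had a peak of 24 tags (15.4 to 35.7) and 6.65-fold enrichment at 39996442, 618 bases before its start site.

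With ZNF302 and ZNF181, 6 of the 12 peaks lay within 1 kb of a start site of a member, with a Wilson interval of 25.4 to 74.6%. At other genes of chromosome 19 it was 37 of 192 peaks, or 19.3% (14.3 to 25.4%). Start sites were matched for 969 of the 1205 other genes and for 216 of the 246 members, every member with one of the 12 peaks included. Peaks at other genes without a listed site stay among the 192, so 19.3% may be too low. The intervals of both shares met. Within 1 kb of either end of a member lay 4 of the 12 peaks, or 33.3% (13.8 to 60.9%), close to the 27.1% (21.3 to 33.8%) of peaks at other genes that lay at the ends of those genes.

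The remaining peaks lay farther inside. ZNF541, which acts in spermatocytes, had summits at 47561187 with 11 tags (5.49 to 19.7) and at 47561864 with 23 tags (14.6 to 34.5), 11 kb or more from its start site. Another peak stood 2.34 kb past its far end at 47518352, with 48 tags (35.4 to 63.6), a fold enrichment of 15.3 and a −log10 q of 41.2, where q is the p that MACS adjusts over the genome. By q it was rank 77 of 13591. It was the tallest peak within 5 kb of any member, 25 tags above the taller peak inside ZNF541. ZNF787 had 27 tags (17.8 to 39.3) at 56091976, 29.3 kb after its start site, and ZNF507 had 18 tags (10.7 to 28.4) at 32352157, 6.55 kb after its start site. ZNF446, which encodes a protein with SCAN and KRAB domains, had 21 tags (13.0 to 32.1) at 58488029, 1.504 kb from the nearer end of the gene. The peak of ZNF254 at 24074051 had 16 tags (9.15 to 26.0), and it had the lowest fold enrichment of the 12, 3.64, over an input level 1.67 times the genome background.

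Between 1 and 5 kb from a member, 2 more genes had their only peak. The ZNF552 summit at 57804267 was 2.82 kb away with 20 tags (12.2 to 30.9), and the ZNF296 summit at 45079174 was 2.70 kb away with 15 tags (8.40 to 24.7), beside the gene GEMIN7.

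**Figure D2:**
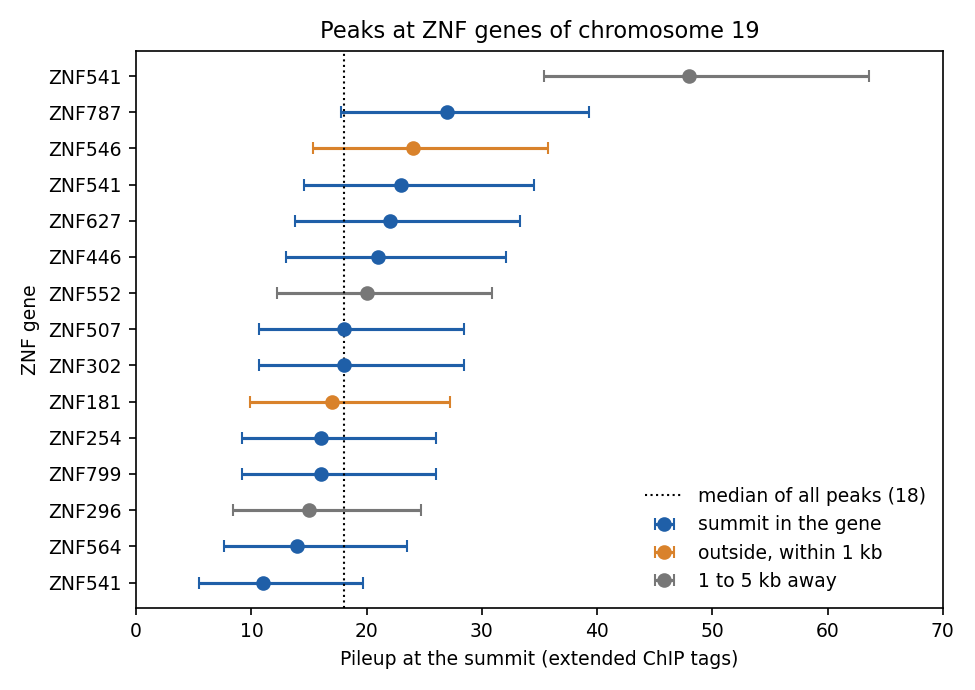
Pileup at the summit in extended ChIP tags (horizontal axis) for each of the 15 peaks in or within 5 kb of a ZNF gene of chromosome 19 (vertical axis, 1 line per peak). Bars are exact 95% Poisson intervals, colours give where the summit lies and the dotted line is the median of all 13591 peaks, 18 tags. The peak 2.34 kb past ZNF541, at 48 tags, is the one whose interval lies wholly above that line.

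The members' peaks were close in strength to those of the whole list. Their pileups ran from 11 to 27 tags with a median of 18, the same median as for all 13591 peaks and close to the 17 of the 192 peaks at other genes of chromosome 19. The median fold enrichment was 5.47 (quartiles 4.92 and 6.11), beside 5.03 (4.28 and 6.25) at the other genes and 5.06 in the whole list. None of the 12 reached a fold enrichment of 10, which by the limit of 3 allows a share of up to 25%, against 2.08% at other genes of the chromosome and 3.82% of all peaks. They were 93 to 274 bp wide, with a median of 126.5 bp, beside a median of 152 bp at the other genes.

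The input level, the local background recovered from pileup and fold enrichment, sat at the genome-wide value of 2.20 tags for 7 of the 12 peaks, and the highest, at ZNF787, was 2.09 times that value. For the 192 peaks at other genes the share at the genome-wide value was 46.9% and the highest level was 2.92 times it. The list records no input level for the 235 members without a peak, and MACS does not let the background fall below the genome-wide value.

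The members differed by where they stand on the chromosome. Joined wherever neighbouring members were less than 1 Mb apart, they fell into 16 runs, of which 7 held 15 to 59 members each and 225 in all. The other 9 runs held 1 to 5 members each and 21 in all. In the large runs 6 of 225 members had a peak within 1 kb, or 2.67% (Wilson interval 1.23 to 5.69%), where other genes of the chromosome weighted to their lengths gave 15.3%. In the short runs 5 of 21 had one, or 23.8% (10.6 to 45.1%), beside a weighted 16.5%. These 5 were ZNF507, ZNF302, ZNF181, ZNF546 and ZNF541. The limit of 10 members that divides large from short runs was set after the runs had been seen.

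Among the large runs, 4 had no member with a peak, 104 genes together. They ran from ZNF557 to ZNF846 (15 members), from ZNF565 to ZNF573 (26), from ZNF575 to ZNF296 (24) and from ZNF175 to ZNF331 (39). With the limit of 3 genes a count of 0 allows up to 20.0% in the smallest of these and 7.69% in the largest, beside Wilson upper ends of 20.4% and 8.97%. The run from ZNF653 to ZNF791 had 3 of 25 (ZNF627, ZNF799 and ZNF564), that from ZNF101 to ZNF254 had 1 of 37 (ZNF254), and that from ZNF628 to ZNF446 had 2 of 59 (ZNF787 and ZNF446).

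Over their full spans, members included, the large runs were low in peaks. The 7 runs spanned 16.5 Mb and held 45 summits, or 2.73 per Mb (Poisson interval 1.99 to 3.65), of which 6 were in members and 39 elsewhere. The rest of the span of protein-coding genes, without the widest stretch free of them (5.08 Mb, 1 peak), had 275 peaks in 37.0 Mb, or 7.44 per Mb (6.58 to 8.37). Inside the members of the large runs the density was 0.984 per Mb (0.361 to 2.14), and outside them 3.75 per Mb (2.67 to 5.13). The runs from ZNF557 to ZNF846 and from ZNF575 to ZNF296 held 26 of the 39 summits outside members, at 7.51 per Mb there (4.91 to 11.0), and the other 5 runs held 13, at 1.87 per Mb (0.998 to 3.20). By the 1 Mb rule those 2 runs take in long stretches without members. Examples are 7521025 to 8509678, between ZNF358 and ZNF414, and 44500522 to 45071500, between ZNF180 and ZNF296. Smaller gaps were tried for counts of members alone, and not for these densities or for the other genes inside the runs. The lowest run was that from ZNF565 to ZNF573, with 0 peaks in 1.60 Mb between 36182060 and 37779586, where the exact Poisson interval reaches 2.31 per Mb. The run from ZNF175 to ZNF331 had 1.49 per Mb (0.308 to 4.36) and that from ZNF628 to ZNF446 had 1.66 (0.539 to 3.87). In 3 runs the interval included the value of the rest of the span. That from ZNF557 to ZNF846 had 6.63 per Mb (3.93 to 10.5) and that from ZNF575 to ZNF296 had 5.18 (2.23 to 10.2), with all 18 and all 8 summits outside the members. That from ZNF653 to ZNF791 had 2.61 (0.538 to 7.62), with all 3 summits in members.

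**Figure D3:**
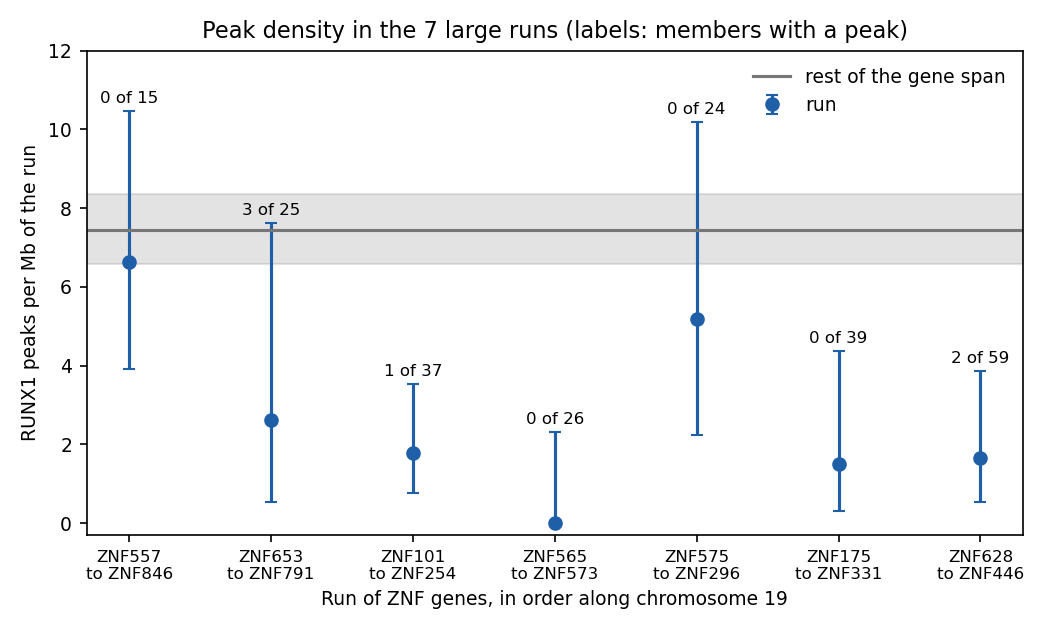
RUNX1 peaks per Mb (vertical axis) over the full span of each of the 7 runs of at least 10 ZNF genes, in order along chromosome 19 (horizontal axis). Bars are exact 95% Poisson intervals, labels give members with a peak within 1 kb of members in the run, and the grey line with its band is the density of the rest of the gene span with its interval, 7.44 per Mb (6.58 to 8.37). The run from ZNF565 to ZNF573 is at 0, and the intervals of 3 runs reach 7.44.

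The 153 other protein-coding genes inside the large runs, those in stretches without members included, were set beside the members. Of these 153, 19 were zinc finger genes under other symbols. A peak was found at 13 of 153 of them, or 8.50% (Wilson interval 5.03 to 14.0%), and at 146 of 1052 outside the runs, or 13.9% (11.9 to 16.1%). Of the 13, 7 (of 54 genes) were in the run from ZNF557 to ZNF846 and 4 (of 28) in that from ZNF575 to ZNF296. In these runs 0 of 15 and 0 of 24 members had one. The other large runs had, in order, 0 of 4, 1 of 2, 0 of 4, 1 of 16 and 0 of 45 other genes with a peak. Their members had 3 of 25, 1 of 37, 0 of 26, 0 of 39 and 2 of 59. Among these, the members' share was the higher one from ZNF653 to ZNF791 and from ZNF628 to ZNF446. It was the lower one from ZNF101 to ZNF254 and from ZNF175 to ZNF331, and both shares were 0 from ZNF565 to ZNF573. The weighted shares below pool all large runs and do not describe each one. They rest mostly on the runs from ZNF557 to ZNF846 and from ZNF575 to ZNF296, which held 15 and 24 of the 225 members. Weighted to the lengths of the 225 members in the large runs, the genes inside gave 8.97%, against 2.67% of those members, a difference of -6.31 percentage points. Without the 19 zinc finger genes, none of which had a peak, the weighted share was 10.7% and the difference -8.05 points. The unweighted interval of the genes inside overlapped that of these members, which reached 5.69%. For all 246 members, those of the short runs included, the difference was -4.78 points against the genes inside and -11.98 points against those outside.

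Distance to the nearest summit gave the same order without a window. The median was 239 kb for the members (quartiles 91.2 and 446 kb), and 45.5 kb for the other genes of the chromosome (11.3 and 112 kb). Over 100 kb from any summit lay 182 members, or 73.98%, against 28.1% of the other genes. Over 500 kb lay 55 members, or 22.4%, against 1.41%. Members of the large runs had a median of 263 kb and those of the short runs 57.0 kb. The farthest was ZNF676, 1208 kb from a summit, followed by ZNF729 (1199 kb), ZNF98 (1093 kb) and ZNF257 (1081 kb), all in the run from ZNF101 to ZNF254. Neighbours in a run share their nearest summit, so these distances are not independent values.

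**Figure D4:**
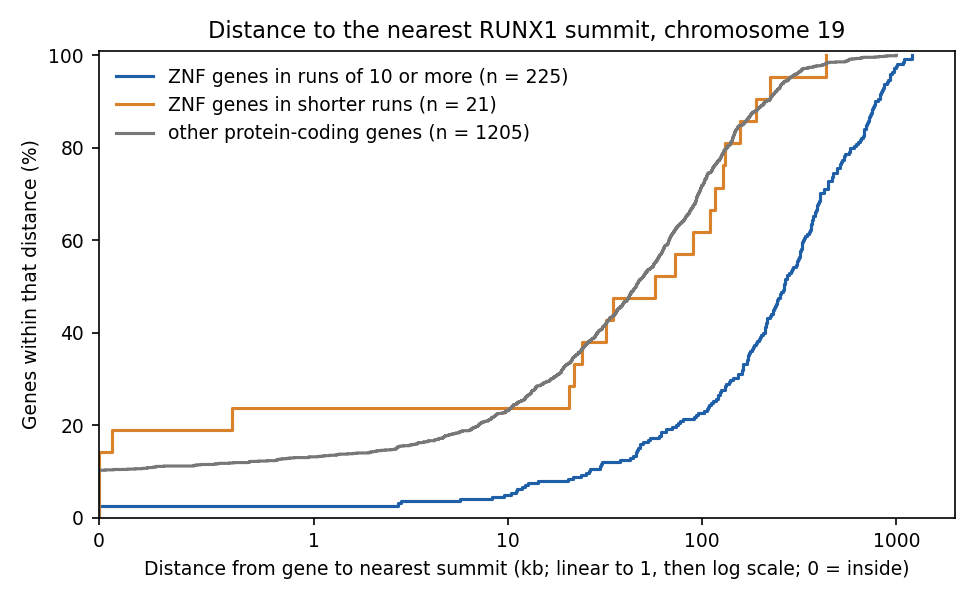
Cumulative percent of chromosome 19 genes (vertical axis) whose nearest RUNX1 summit lies within the distance in kb on the horizontal axis, which is linear to 1 kb and logarithmic beyond, with 0 for a summit inside the gene. Lines are the 225 ZNF genes in runs of 10 or more, the 21 in shorter runs and the 1205 other protein-coding genes. The large-run line stays to the right of the others, with medians of 263, 57.0 and 45.5 kb.

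The 5 longest members without a peak within 5 kb were 83.5 to 488 kb long. ZNF536, which restrains neuronal differentiation, is the longest member at 488 kb and stood 436 kb from the nearest summit. ZNF420, which is known to restrain p53-dependent apoptosis, is 122 kb long and stood 802 kb from one. ZNF69 (92.4 kb long) was 290 kb away, and ZNF577 (83.5 kb long) was 53.9 kb away. ZNF91, a KRAB repressor of SVA retrotransposons, is 90.5 kb long and was 120 kb away. These genes were picked for having no peak.

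The genes through which KRAB zinc finger proteins act were looked up in the same list. Of 18 corepressor genes, 2 had a peak within 1 kb and none of the others had one within 5 kb. UHRF1, which recruits the maintenance DNA methyltransferase, had 2 peaks, the better with 24 tags (15.4 to 35.7) and a fold enrichment of 5.35, and CHD4, the remodeller of the NuRD complex, had 1 with 20 tags (12.2 to 30.9) and 6.09-fold enrichment. TRIM28, SETDB1, ATF7IP, CBX1, CBX3, CBX5, CHD3, DNMT1, MPHOSPH8, TASOR, PPHLN1, MORC2, ATRX, DAXX, HDAC1 and HDAC2 had 0 peaks. This count, 2 of 18, stands beside the 21.0% of all protein-coding genes given above.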

How the data were processed

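RUNX1 ChIPseq and input DNA of MCF10A cells were grouped by the antibody in their labels, 1 library each. The authors deposited 1 peak list, made with MACS 2.1.2 at a q limit of 0.05 from 54 bp tags extended to 74 bp, with 1 tag kept per position and strand. The labels name Bowtie2 and hg38. Deposited values are the pileup (a signal, in extended tags), the fold enrichment (a ratio to local background), and the q-value as −log10. These were used as the authors gave them.

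Summits were assigned to gene intervals of the RefSeq GRCh38.p14 table, in the gene or within 1 kb (also 5 kb). The table carries no exons. Other genes of chromosome 19 were weighted to the members' numbers in classes cut at 5, 10, 20, 40 and 80 kb, as a description with no test. Start sites, strands and promoter windows came from RefSeq. Genes were named by rule: members with a peak within 1 kb (30 or fewer), members with their only peak at 1 to 5 kb, the 5 longest members with none, the corepressor list and genes sharing a peak. ZNF676, ZNF729, ZNF98, ZNF257, ZNF599, ZNF30 and ZNF792 were named after their values were seen. Members and lists were chosen with earlier results of these data known. Intervals are 95% Wilson (shares) or exact Poisson (tags, peaks). Python 3.11.15, pandas 2.3.3, scipy 1.17.1 and biopython 1.88 were used, and the assignment was tested on simulated data. Alternatives were other windows, q and fold limits, merged peaks, length matching, references and run gaps.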

Additional observations from a re-analysis of the deposited data

How the results depend on the processing

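Of 32 alternatives over 8 results, 27 left the value within the interval of the value reported or the count within 1.5 times of it. A change of direction was scored for the difference described next alone, and none was found. The difference between members and other chromosome 19 genes of their length stayed below 0 under all 12 alternatives tried. Members of the short runs alone were not among these. For those 21 genes the difference was above 0, at 7.30 points within 1 kb and 3.24 within 5 kb. For all members it was -14.4 percentage points with 5 kb on either side and -5.11 when peaks under a fold enrichment of 5 were dropped. That limit kept 9 of the 12 peaks at members and 96 of the 192 at other genes. The intervals of the unweighted shares then overlapped. It was -4.78 against other genes inside the large runs and -6.31 for members and other genes both inside them, alternatives chosen after seeing the data. Of the 13 other genes with a peak there, 7 and 4 lay in the runs from ZNF557 to ZNF846 and from ZNF575 to ZNF296. In the other large runs the members' share was not always the lower one. Why the difference varied among these alternatives was not tested. With 50 kb on either side, also added afterwards, 47 of 246 members had a peak, or 19.1% (Wilson interval 14.7 to 24.5%), against 52.4% of the other genes. Both shares rose by construction of the wider window. For the 219 members whose window meets no other gene's window the difference was -11.0 points. Members with a peak in large runs were 6 of 222 when runs were joined under 500 kb and 4 of 192 under 250 kb. No paired analysis was possible because a single ChIP and a single input library exist. Statements about single runs, length classes and start sites rest on 0 to 12 peaks at members, and the lowest peak at a protein-coding gene of the chromosome had 10 tags.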

Other observations

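ZNF genes on the other chromosomes, named by the same symbol rule, were closer to their surroundings. By the 1 kb rule 37 of 264 had a peak, or 14.0% (95% Wilson interval 10.3 to 18.7%), where non-ZNF genes of those chromosomes weighted to their lengths gave 20.7%. That weighted share was 1.48 times theirs, beside 3.45 times for the 246 ZNF genes of chromosome 19. Peaks per Mb were 3.67 (exact Poisson interval 2.74 to 4.82) at the ZNF genes of other chromosomes, 5.33 at non-ZNF genes there and 1.60 at those of chromosome 19. Their median distance to a summit was 80.9 kb, against 239 kb on chromosome 19. The difference between both sets of ZNF genes was not tested.

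Zinc finger genes of chromosome 19 under other symbols (ZFP, ZSCAN, ZIM, ZIK, ZBTB, PEG3 and joined symbols) had a peak within 1 kb at 1 of 23, or 4.35% (0.772 to 21.0%). The gene was ZBTB45, named after its value was seen. Their median distance to a summit was 188 kb. Joined symbols such as ZNF559-ZNF177 cover members, so these genes are in part the same sequence.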
